A study of Populus tremula x Populus alba with 3 samples.

Results

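The core histone genes of hybrid poplar were examined in an RNA sequencing comparison of shoot apices. The genes were chosen by their description, taken from the Arabidopsis best hit, among the rows of the authors' deposited table, and each was grouped by the histone type of its best hit. The rule found 7 of the 318 listed genes (2.20%), namely 3 for H4, 3 for H3 and 1 for H2B. The authors' deposited table holds only genes with an adjusted p under 0.1, so these genes were also selected by their adjusted p in the comparison described here. Their direction and size are therefore a description and no test was added. How many other histone genes poplar carries, and how many of them were among the 41335 genes tested, was not analysed here, so no share of all histone genes can be given.

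The libraries came from apices of the hybrid Populus tremula x Populus alba, clone 717-1B4, after 28 days in SD, read here as short days, which bring poplar shoots to growth arrest and bud set. The CsDML over-expressors were represented by 2 libraries, 1 from the line CsDML OX1 and 1 from the line CsDML OX3. Wild type of the same clone was represented by 1 library. CsDML is read here as a DEMETER-like DNA glycosylase of chestnut, an enzyme class that removes methylated cytosine from DNA. The sources used here do not name the promoter that drives the transgene. The comparison asked which transcripts differ in these apices when such an enzyme is over-expressed. Each gene has 1 fold change and 1 mean level for the whole comparison, so no value per library, no replicate error and no library depth could be given, and the apical identity of the tissue could not be checked against marker levels.

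Core histones are the proteins around which DNA is wound in the nucleosome, which holds pairs of H2A, H2B, H3 and H4. Plants carry each type as a family of genes that encode nearly the same protein. Most of these genes are transcribed as DNA is copied in S phase, and their RNA is abundant where cells divide, as in the shoot apical meristem and young leaf primordia. Plant histone RNAs generally carry poly(A) tails, unlike the main replication-dependent histone RNAs of animals.

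Of the 7 core histone genes in the authors' deposited table, 6 were lower in the over-expressors and 1 was higher. With 0.05 as the limit for the adjusted p, 4 of them fell and 1 rose, while 2 H3 genes were listed lower with an adjusted p between 0.05 and 0.1. Over all genes tested, 0.387% fell and 0.104% rose at an adjusted p under 0.05, and 0.578% were lower and 0.191% higher at an adjusted p under 0.1. These shares cannot be set against the histone count, because the histone genes were found among the listed genes and the number tested is not known. The lower share was 85.7% of the histone genes and 75.2% of all genes listed by the authors. Among 124 other listed genes within the histone range of mean level it was 80.6%. With only 7 histone genes, nothing particular to them can be read from these shares. The median log2 fold change of the 6 lower histone genes was -1.26, beside -1.21 for all 239 listed lower genes. For the 100 lower genes among those 124 it was -1.25. These medians lay close together. In RNA from whole apices, fewer dividing cells and less histone RNA per cell cannot be told apart. The plot of the 7 fold changes, with that of an H2A.X gene described further on, shows the single gene that ran against the rest.

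**Figure D1:**
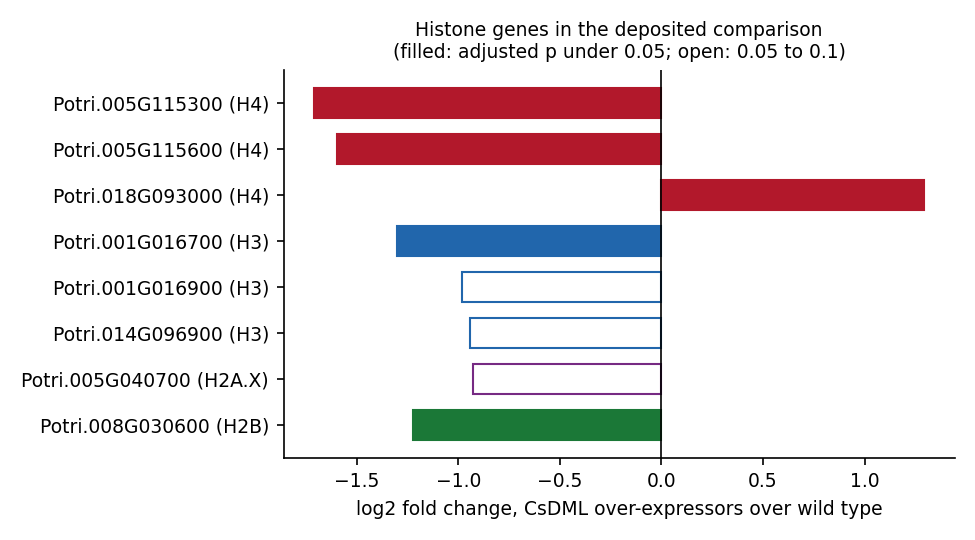
Log2 fold change of CsDML over-expressors over wild type, in the authors' deposited table, for each listed gene with a histone best hit. Bars are coloured by histone type, filled bars have an adjusted p under 0.05 and open bars one between 0.05 and 0.1; 1 H4 gene points to higher levels and the other 7 bars, among them H2A.X, to lower levels.

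H4 is the most conserved of the core histones and forms a dimer with H3. All 3 H4 genes have the same best hit, AT5G59690, and all 3 passed an adjusted p of 0.05, in opposite directions. Potri.005G115300 fell by 1.71 on the log2 scale, or 3.27-fold (the authors' deposited table, adjusted p 2.54e-06). It had the smallest adjusted p of the 7 histone genes and was number 14 of the 318 listed genes by p. Potri.005G115600 fell by 1.60 on the log2 scale, or 3.02-fold (the authors' deposited table, adjusted p 0.0169). Potri.018G093000 rose 2.45-fold, a log2 fold change of 1.29 (the authors' deposited table, adjusted p 0.0277). The log2 fold change of the higher H4 gene exceeded those of the lower ones by 3.004 and 2.89.

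The levels behind these folds were moderate to low. In log2 CPM, CPM being reads in each 1000000 of the library, the authors' deposited table gives a mean level of 4.67 for Potri.005G115300, 2.49 for Potri.005G115600 and 4.38 for Potri.018G093000. From mean level and fold, with 2 over-expressor libraries and 1 wild-type library, the level of each group can be worked out. It came to about 14.5 CPM in the over-expressors and 47.4 CPM in wild type for Potri.005G115300. For Potri.005G115600 it came to about 3.35 CPM in the over-expressors and 10.1 CPM in wild type. The higher gene, Potri.018G093000, came to about 26.0 CPM in the over-expressors and 10.6 CPM in wild type. Added up, the 3 H4 genes took about 43.8 CPM in the over-expressors and 68.1 in wild type, a log2 ratio of -0.64. Without Potri.018G093000 the sums were 17.8 and 57.5 CPM in the over-expressors and in wild type, a log2 ratio of -1.69. In read number, the difference at the higher gene was smaller than that at the lower genes together. These sums cover the listed genes only and carry no error.

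**Figure D2:**
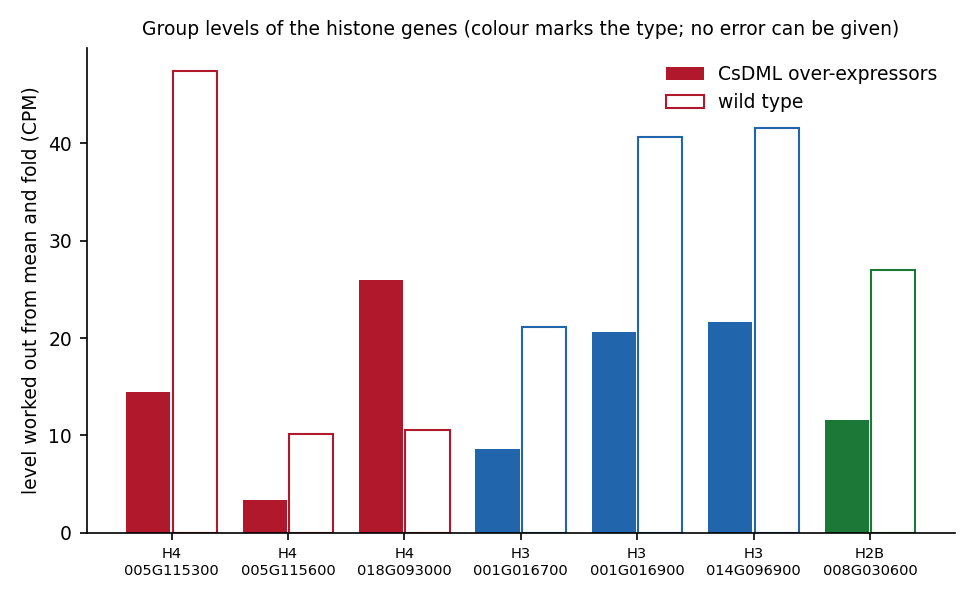
Levels in CPM worked out from mean level and fold for the 7 core histone genes, with CsDML over-expressors as filled bars to the left of wild type as open bars. Only the H4 gene 018G093000 is higher in the over-expressors, at about 26.0 CPM against 10.6 CPM in wild type; no error bar can be drawn because the deposited table has 1 value for each gene.

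H4 genes of a plant can be nearly identical in sequence, and the sources used here do not say how reads that fit several copies were counted. The split of reads between the 3 H4 genes is uncertain for this reason. The gene IDs carry the prefix of Populus trichocarpa, while the plants are a hybrid of other poplars, and how reads of either parental copy were assigned to these genes is not described in those sources.

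H3 carries many of the modified residues that mark active and silent chromatin. The authors' deposited table has all 3 H3 genes lower, and 1 of them passed an adjusted p of 0.05. Their best hits, AT5G10400 and AT1G09200, encode the replication-coupled form of H3 in Arabidopsis, which is deposited as DNA is copied. Potri.001G016700 fell by 1.30 on the log2 scale, or 2.47-fold, with a mean level of 3.67 in log2 CPM (the authors' deposited table, adjusted p 0.0133). Potri.001G016900, with the same best hit, stands in the authors' deposited table at -0.98 (adjusted p 0.0666). Potri.014G096900 stands in the authors' deposited table at -0.94 (adjusted p 0.0938). The worked-out levels were about 8.57 CPM in the over-expressors and 21.2 CPM in wild type for Potri.001G016700. They were about 20.6 and 40.7 CPM for Potri.001G016900, and about 21.6 and 41.5 CPM for Potri.014G096900, in the over-expressors and in wild type. The 3 genes together took about 50.8 CPM in the over-expressors and 103.3 in wild type.

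H2B pairs with H2A on the outer faces of the nucleosome. The single listed H2B gene, Potri.008G030600, has the best hit HTB9 and fell by 1.22 on the log2 scale, or 2.33-fold, with a mean level of 4.06 in log2 CPM (the authors' deposited table, adjusted p 0.0160). Its worked-out level was about 11.6 CPM in the over-expressors and 27.0 CPM in wild type. No listed gene had a best hit among the linker histones H1. Of H2A, 1 gene was listed whose description the rule does not take in. Potri.005G040700, with the best hit HTA3, encodes H2A.X, the variant that is phosphorylated beside DNA breaks, and stands in the authors' deposited table at -0.93 (adjusted p 0.0780). The authors' deposited table gives it a mean level of 5.30 in log2 CPM, which corresponded to about 30.3 CPM in the over-expressors and 57.7 CPM in wild type. A gene that is not listed had an adjusted p of 0.1 or more or was not tested, which does not show that it was unchanged.

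Fold and level were linked among the listed genes, so in the authors' deposited table each histone gene was set beside listed genes of the same direction whose mean level lay within 0.5 on the log2 CPM scale. For Potri.005G115300, 1 of 48 such genes showed a larger change, and Potri.005G150800 lay close to it at -1.66. Potri.018G093000 likewise had 1 of 14 above it, and Potri.013G062200 lay close below it at 1.27. Both H4 genes were chosen with their changes known, so these ranks are a description only. For Potri.005G115600, Potri.001G016700 and Potri.008G030600 the numbers with a larger change were 21 of 32, 19 of 48 and 20 of 48. Potri.001G016900 and Potri.014G096900 lay near the listing limit, with 37 of 46 and 41 of 44 showing a larger change. At those levels the authors' deposited table has 0.93 on the log2 scale as its smallest decrease.

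**Figure D3:**
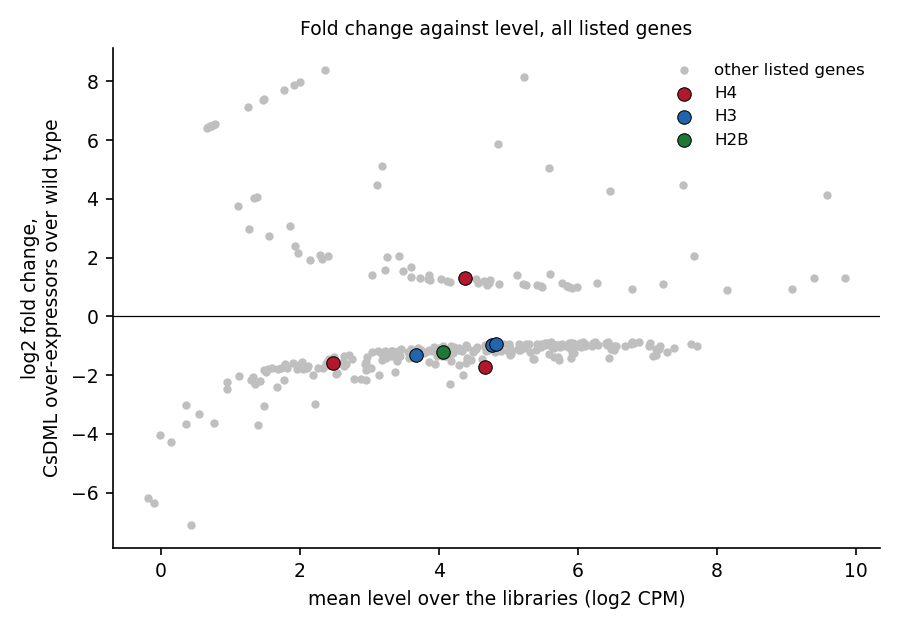
Log2 fold change of CsDML over-expressors over wild type against the mean level in log2 CPM for the 318 genes of the authors' deposited table, with core histone genes coloured by type. The H4 gene at -1.71 lies at the lower edge of the band of lower genes of like level, and the H4 gene at 1.29 is the only coloured point above 0.

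Among the 7 histone genes, the largest adjusted p under 0.05 was that of Potri.018G093000, 0.0277, and the smallest above it that of Potri.001G016900, 0.0666, in the authors' deposited table. By p these genes were number 161 and number 256, while 203 listed genes had an adjusted p under 0.05, so neither lay next to that limit. The last histone gene inside the listing limit of 0.1 was Potri.014G096900 with 0.0938, number 303 of 318 by p. Read as two-sided normal p-values, the deposited p-values would correspond to standard errors of the log2 fold change between 0.28 and 0.39 for the 7 genes. With 1 wild-type library these do not measure how far wild-type apices differ from each other. By p, Potri.005G115300 stood between EXO, listed at -2.97, and a gene of unknown function (Potri.013G149400), which the authors' deposited table has at -3.71. Potri.018G093000 stood between a homologue of the cytokinesis kinesin NACK1, at -1.78, and TAF11, a subunit of the general transcription machinery, at -1.45 in the authors' deposited table. Potri.001G016700 stood between the chromatin remodeller CHR24, at -1.66, and ICU2, at -1.11, there (the authors' deposited table). The genes beside Potri.005G115600 were one of unknown function, at -1.78, and a DnaJ-domain chaperone, at -1.17, and those beside Potri.008G030600 a nucleoside triphosphatase, at -1.40, and the nuclear pore anchor NUA, at -1.02 (the authors' deposited table). For both H3 genes above an adjusted p of 0.05 the gene before had no name or description (1.01 before Potri.001G016900 and -0.93 before Potri.014G096900, from the authors' deposited table). The genes after them were the Mediator subunit CCT, at -0.91, and ZCF125, at -1.18, per the authors' deposited table.

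An opposite direction within 1 best hit was rare among the listed genes. A search of the authors' deposited table found 32 Arabidopsis best hits that were shared by 2 or more genes, 66 genes in all. For 31 of these best hits every listed gene was lower, and for 1, the H4 best hit AT5G59690, the directions were mixed. Within the 31 the median distance between the lowest and the highest log2 fold change was 0.11 and the largest 0.76, while for H4 the distance was 3.004. The H3 best hit AT5G10400 had a distance of 0.32. Only genes past the listing limit enter this count, 75.2% of the listed genes were lower, and the H4 genes were known to differ when it was made. The smallest listed rise was 0.90 and the smallest listed decrease -0.86 on the log2 scale. Any best hit with mixed directions therefore had to span more than 0.76, so the listing limit alone sets the H4 distance apart from the 31.

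**Figure D4:**
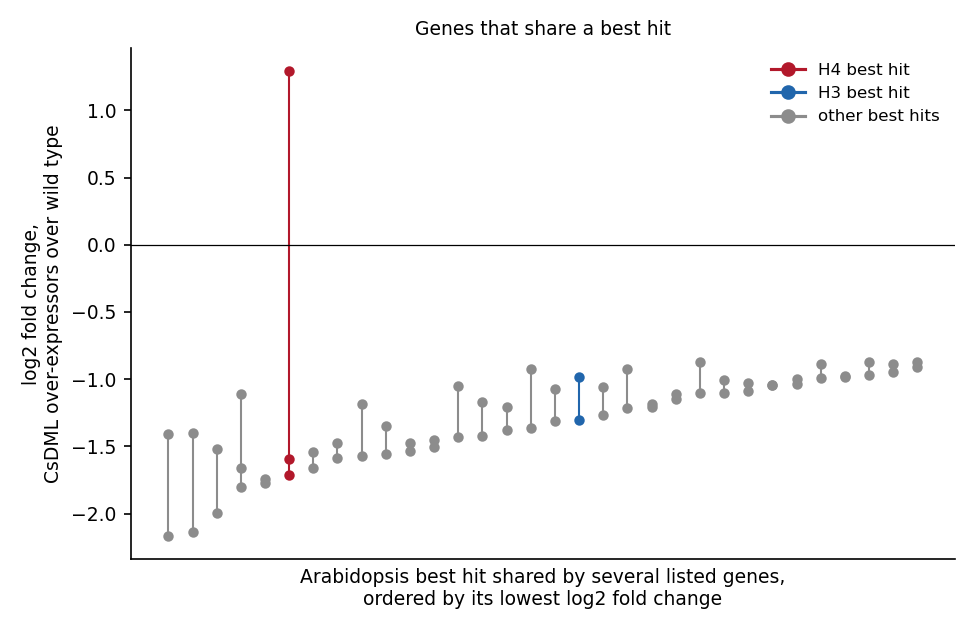
Log2 fold change of CsDML over-expressors over wild type, in the authors' deposited table, for the 66 genes that share an Arabidopsis best hit with another listed gene; each column of joined points is 1 of 32 best hits. The H4 best hit spans 3.004 on the log2 scale across 0, while the H3 best hit and the other best hits lie wholly below 0.

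Several histone genes carried close ID numbers, which in this naming scheme run along the chromosome. The lower H4 genes, Potri.005G115300 and Potri.005G115600, have chromosome 5 IDs that are 300 apart, with no listed gene between them, and differed by 0.11 in log2 fold change in the authors' deposited table. The H3 genes Potri.001G016700 and Potri.001G016900 have chromosome 1 IDs that are 200 apart, again with no listed gene between, and differed by 0.32 there (the authors' deposited table). The higher H4 gene has a chromosome 18 ID. Of the 32 shared best hits, 3 had genes within 1000 of each other in ID number on 1 chromosome, and 2 of these 3 were histones (H4 and H3). The remaining one was SYD, a chromatin remodeller. Within the 31 best hits with all listed genes lower, the median distance in log2 fold change was also 0.11. Nothing particular to close IDs can therefore be read from the distances of 0.11 and 0.32. The split of reads between the H4 genes is uncertain, as described above. ID distance is no measure of base pairs, and no coordinates were used.

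The listed genes nearest to each histone gene in fold and level included several that act on chromosomes. Among all 239 listed lower genes were 23 of the cell division list and 9 histone modifiers, both taken up below. How often such genes lie near any lower gene was not worked out, so nothing particular to the histone genes can be read from their neighbours. Likeness was measured as the distance in log2 fold change and mean log2 CPM over this 1 comparison, among genes with a description, 3 for each histone gene. Nearest to Potri.005G115300 were a condensin subunit (Potri.017G083200, -1.46) and both listed homologues of topoisomerase II, an enzyme that untangles DNA (-1.58 and -1.48, the authors' deposited table). Nearest to Potri.005G115600 were SYD (-1.66), the condensin subunit SMC2 (-1.56) and CHR24 (-1.66, all in the authors' deposited table). Fold enters this distance, so the neighbours of the higher gene Potri.018G093000 could only be higher genes. No listed gene of the chaperone, replication, modifier or cell division lists described further on was higher. Nearest to Potri.018G093000 was a gene of iron-sulphur cluster assembly that rose by 1.21 (the authors' deposited table, adjusted p 0.0475). After it came 2 genes that the authors' deposited table lists at 1.15 and 1.19 (adjusted p 0.0610 and 0.0658). The first of those 2 is described as an oligosaccharyltransferase and the other as early nodulin-related. Potri.001G016700 lay closest to DME, a DNA demethylase (-1.38), MYB3R1, a regulator of mitotic genes (-1.21), and GWD1, a starch dikinase (-1.24, all in the authors' deposited table). Potri.001G016900 and Potri.014G096900 both lay close to an ABC transporter gene (-0.96) and to RNR1 (-0.999) in the authors' deposited table. A myb family gene (Potri.015G095000, -1.01) was the remaining neighbour of Potri.001G016900, which was itself the remaining neighbour of Potri.014G096900 in the authors' deposited table. Around Potri.008G030600 lay a kinesin (-1.29), the cell cycle gene FZR3 (-1.26) and a glucan synthase-like gene (-1.34, all in the authors' deposited table).

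Genes that handle histones or copy DNA were represented by 3 listed genes. Of all listed genes 75.2% were lower, and 160 of the 239 lower ones fell, so nothing particular to these 3 can be read from their direction. Of the histone chaperone list, which holds the CAF-1, ASF1, NAP1, HIRA, SPT6 and FACT families, 1 gene was listed. It was GTB1, a homologue of the elongation factor and histone chaperone SPT6, which fell by 0.99 on the log2 scale (Potri.006G031900; the authors' deposited table, adjusted p 0.0255). Of the DNA replication list 2 genes were listed, both lower, and 1 of them fell. ICU2, the catalytic subunit of DNA polymerase alpha, fell by 1.11 (Potri.007G045300; the authors' deposited table, adjusted p 0.0147). RNR1, the large subunit of the enzyme that makes deoxyribonucleotides, stands in the authors' deposited table at -0.999 (Potri.007G076700, adjusted p 0.0595). No MCM helicase subunit, PCNA or origin recognition gene was taken in, and whether they were tested is not known.

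Enzymes that modify histones were all lower where listed. The authors' deposited table holds 9 such genes, of which 7 fell and 2 were listed lower, and their median log2 fold change was -1.05. For all 239 listed lower genes it was -1.21, 160 of them fell, and 75.2% of all listed genes were lower. The median mean level was 5.59 in log2 CPM for the 9 genes and 4.22 for the 239. Fold and level were linked among the listed genes, so nothing particular to the 9 can be read from these medians. In the authors' deposited table both homologues of IBM1, a demethylase of histone H3, fell, to a log2 fold change of -1.31 (Potri.005G082900, adjusted p 0.0241) and -1.07 (Potri.005G091200, adjusted p 0.0147). Both homologues of SDG2, an H3 methyltransferase of active genes, fell there as well (the authors' deposited table has -1.05 and -1.04, adjusted p 0.0176 and 0.0162). Of other jumonji-domain genes in the authors' deposited table, 2 fell, Potri.015G012800 at -1.29 (adjusted p 0.000753) and Potri.003G126600 at -0.96 (adjusted p 0.0469). For the H3 methyltransferase SDG8 the authors' deposited table has 1 homologue that fell, at -1.21 (adjusted p 0.00432), and another listed at -0.93 (adjusted p 0.0745). It lists the histone acetyltransferase HAC1 at -0.89 (the authors' deposited table, adjusted p 0.0987). The 3 genes of SDG8 and HAC1 and the H2A.X gene are the only listed genes outside the 7 whose description holds the word histone.

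Genes of cell division were also listed. Of 23 listed genes taken in by words for cyclins, kinesins, spindle and chromosome condensation, all were lower and 17 fell, and the authors' deposited table gives them a median log2 fold change of -1.35. For all listed genes 75.2% were lower, and of the 239 lower ones 160 fell, with a median of -1.21. The 23 genes were found among listed genes, so nothing particular to them can be read from these counts. The words can miss genes of cell division that are described otherwise, so 23 need not be a full count. The steepest of the 23 taken in were POK2 (-2.30) and POK1 (-2.15), both from the authors' deposited table. They were followed by a kinesin-domain gene, Potri.001G436200, listed at -2.04 (adjusted p 0.0521), and a mitotic checkpoint gene (-1.97, the authors' deposited table). Beside them, the authors' deposited table has 2 of 2 listed genes of photosystem I higher, LHCA3 by 1.43 (adjusted p 0.00135) and PSAO listed at 1.08 (adjusted p 0.0558). The xylem peptidase XCP1 fell by 1.75 (the authors' deposited table, adjusted p 0.0489). Whether these genes reflect a different mix of tissues in the apices was not tested, nor was the part of such a mix in the histone values.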

How the data were processed

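RNA of 3 libraries was compared by the authors. A directional library kit was used, per the labels' protocols, and the authors used FastQC, TopHat and edgeR, per the submitters' processing notes. The sources used here give no versions, genome build, annotation or read counter. The deposited columns are, per the file headers, the log2 fold change of CsDML OX against WT, the mean level in log2 CPM, the p-value and the adjusted p-value. The base of the fold change, 2, was read from the names the authors' edgeR gives its columns.

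The number of genes tested, 41335, was recovered from the deposited p-value, rank and adjusted p-value, and Benjamini-Hochberg values recomputed over it matched 318 of 318 rows (relative tolerance 1e-06). Depth is unknown, so no counting interval is given. Group levels were worked out from mean level and fold, for 2 over-expressor libraries and 1 wild-type library; since the mean level the authors deposited is itself a moderated estimate, they are approximate. Adjusted p under 0.05 is described as rose or fell. No test was added, since the table has 1 value for each gene. Python 3.11.15 and pandas 2.3.3 were used, and scripts were tested on simulated data.

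The histone genes and the lists of related genes were chosen with earlier results of these data known. Named were all histone genes, all listed chaperone, replication and modifier genes, and the 4 steepest genes of the cell division list. The 3 nearest genes in fold and level and the genes adjacent by p were also named. Alternatives were thresholds of 0.01 and 0.1, a minimum change or mean level of 1, membership by Arabidopsis ID, and equal weight for both groups.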

Additional observations from a re-analysis of the deposited data

How the results depend on the processing

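The threshold set most counts. At an adjusted p under 0.01 in the authors' deposited edgeR comparison 0 histone genes rose and 1 fell (Potri.005G115300). At this limit 23 of all genes rose and 71 fell, and 0 chaperone, 0 replication, 2 modifier and 10 cell division genes fell. All 7 histone genes had an unadjusted p under 0.05, which the listing limit already ensured for every listed gene. At an adjusted p under 0.1, 79 of all genes were higher and 2 replication genes lower. With genes under 0.05 only, 19 best hits were shared, of which 1, H4, was mixed. The histone counts were the same with a minimum change or mean level of 1 and with membership by Arabidopsis ID. With equal weight for both groups the summed level of the 7 histone genes was 99.4 CPM in the over-expressors and 174.4 CPM in wild type, in place of 106.1 and 198.4 CPM. Leaving out a line and a replicate block were not run, since the table has no value for each library. No paired analysis was possible because wild type has 1 library.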
